A study of Homo sapiens with 2 samples.

Results

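The genes described here encode the subunits of RNA polymerases I, II and III and the general transcription factors that place them on promoters. They were taken as every gene whose single annotated symbol begins with POLR1, POLR2 or POLR3, with TAF and a number, or with GTF2 or GTF3, pseudogenes left out. The array held 75 such genes out of 18239, read by 184 probe sets. After dim probe sets were left out, 67 of these genes and 160 of their probe sets remained, among 11272 genes in all. The measured genes were 29 polymerase subunits and 38 general factors and TBP-associated factors (TAFs).

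The arrays compared GFP-SAS cells, a squamous cell carcinoma line of the human tongue whose name denotes green fluorescent protein, after inhibition of a microRNA. The anti-miR cells were given an antisense oligonucleotide of LNA and DNA, at 25 nM and for 24 h, that was directed at miR-361-3p. The control cells received the same amount of a non-target LNA/DNA oligonucleotide for the same time, so both carried an oligonucleotide and the GFP label. Each group was measured once, on 1 Affymetrix array that read 10 ng of total RNA from the 3' end of transcripts. No difference below can therefore be set against variation between cultures, and no test or p-value is given.

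Values are log2 expression values, and a difference is the anti-miR array minus the control array. A gene with several probe sets has the SD over those probe sets beside its difference, which is a technical error within the arrays. A gene is called higher or lower when the difference reached 1.5-fold (0.585 on the log2 scale). The median gene of the whole array lay at 0.13, and this shift was left in the values. In RNA of whole cultures, fewer cells that express a gene and less RNA per cell cannot be told apart. The microRNA that the inhibitor was directed against is shown with its seed, bases 2 to 8 from the 5' end, in capitals (RefSeq, GRCh38.p14, chrX:85903641-85903663, minus strand).
hsa-miR-361-3p: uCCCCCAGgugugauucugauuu

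Polymerase I transcribes the large ribosomal RNA precursor in the nucleolus, polymerase II the messenger RNAs, and polymerase III transfer RNAs and other short RNAs. Each enzyme has a catalytic core of large subunits, a set of small subunits shared among the enzymes, and peripheral subunits of its own. At polymerase II promoters TFIID, which is made of TBP and TAFs, binds the promoter and is joined by TFIIA, TFIIB, TFIIE, TFIIF and TFIIH. SL1 plays the corresponding part for polymerase I, and TFIIIA, TFIIIB and TFIIIC for polymerase III.

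The labelled cell type was checked on marker genes. Of the squamous epithelial markers, 5 of the 6 with a probe set of their own (KRT5, SFN, CDH1, EPCAM and DSP), each read by its brightest probe set, lay on both arrays above the highest of 23 nonspecific control probe sets. That level, the top of the nonspecific range, was 7.16 for anti-miR cells and 6.87 for control cells. The mean over all CDH1 probe sets, 6.31 in anti-miR cells and 6.53 in control cells, did not reach it. KRT14, at 3.87 in anti-miR cells and 3.63 in control cells, was not above it by any probe set. None of the 17 leukocyte, endothelial, fibroblast and skeletal muscle markers on the array lay above it on both arrays. The poly-A controls, bacterial transcripts mixed into the RNA ahead of labelling, differed by 0.32 ± 0.19 (SD over 12 probe sets), and their part in the differences below was not tested.

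Of the 67 measured genes, 9 reached 1.5-fold higher levels in anti-miR cells (13.4%, against 8.23% of all genes) and 3 were at least 1.5-fold lower (4.48%, against 14.2% of all genes). The higher genes were POLR1E, POLR1G, POLR2H, POLR3GL, POLR3E, POLR3C, TAF9, TAF6L and GTF2H1. The lower genes were TAF2, TAF3 and POLR3B. The other 55 lay within 1.5-fold, and at 2-fold 0 genes were higher and only TAF2 was lower. The median difference was 0.24, with quartiles of -0.0010 and 0.44, beside a median of 0.13 and quartiles of -0.21 and 0.33 for all genes. The difference was above 0 for 50 of the 67 genes (74.6%), beside 62.3% of all genes. The SD of the differences was 0.41 among these genes and 0.58 among all genes.

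The calls depended on where the arrays were centred. With the median gene set to 0, higher calls fell to 4 (GTF2H1, POLR1E, POLR3GL and TAF6L). Lower calls became 6, with POLR2B, GTF2F2 and GTF2IRD1 joining TAF2, TAF3 and POLR3B. The share of higher genes among those past the threshold was 40% with this centring and 75% without it; for all genes it was 20.4% and 36.7%.

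**Figure D1:**
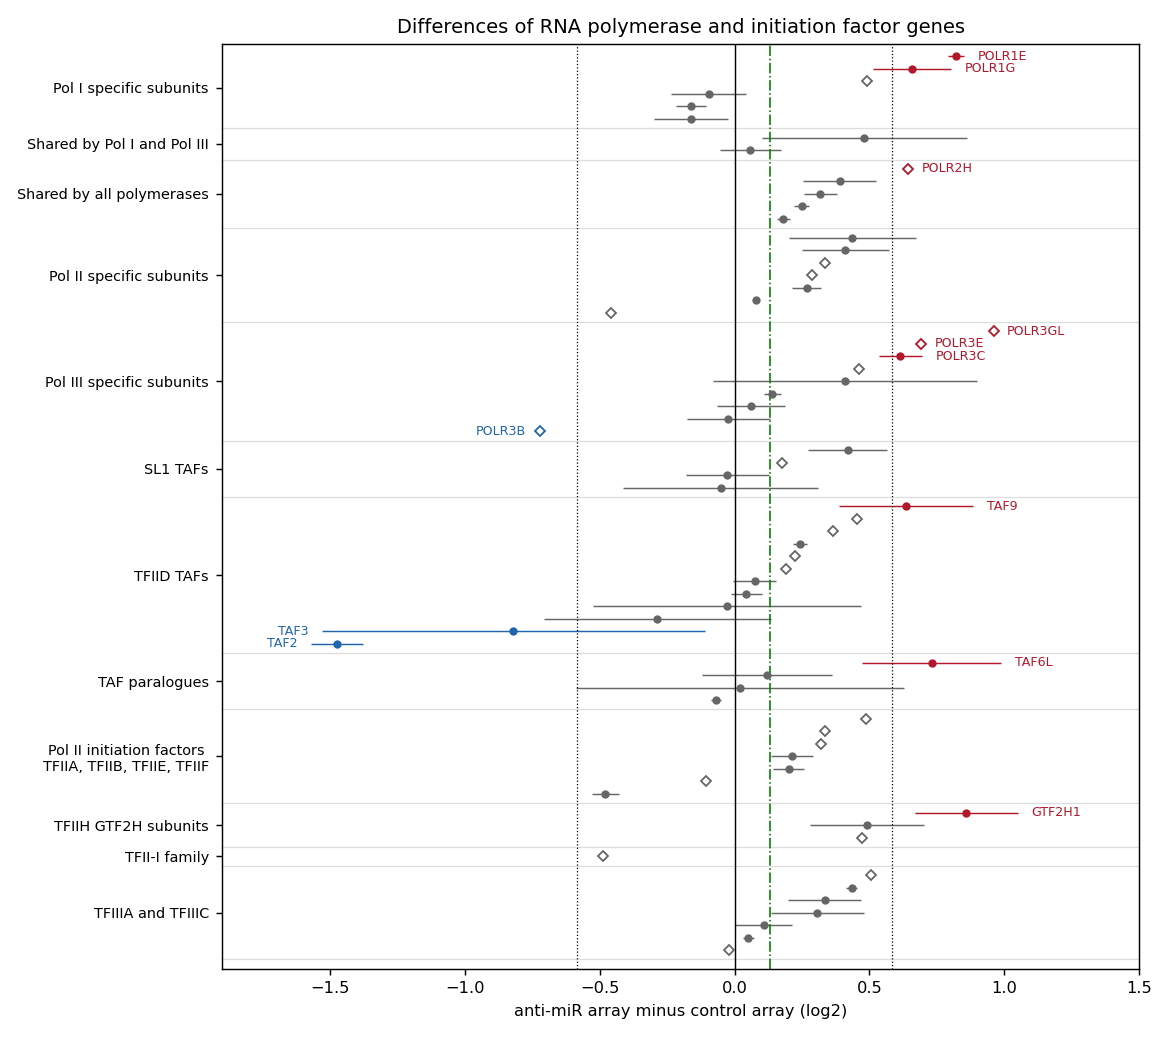
Difference of each measured gene, anti-miR array minus control array on the log2 scale, grouped by the complex its product belongs to. Filled circles are means over at least 2 probe sets with the SD as bars and open diamonds are single probe sets; red marks genes 1.5-fold higher, blue genes 1.5-fold lower, dotted lines the 1.5-fold threshold and the green line the median of all genes at 0.13. TAF2 at -1.47 stands lowest and POLR3GL at 0.96 highest.

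Among the 6 subunits found in polymerase I alone, 2 were higher (33.3%, against 8.23% of all genes) and 0 lower (against 14.2%). Over 6 genes such shares are coarse. POLR1E and POLR1G form the peripheral dimer of this enzyme, which serves in initiation and elongation. POLR1E was at 8.12 in anti-miR cells and 7.30 in control cells, a difference of 0.82 ± 0.03 (SD over 3 probe sets). POLR1G was at 7.83 in anti-miR cells and 7.17 in control cells, a difference of 0.66 ± 0.15 (SD over 3 probe sets). Both partners of the dimer were thus higher, and the 3 probe sets of each gene differed in the same direction. With the median gene at 0, POLR1G lay at 0.53 and was no longer past the threshold.

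The remaining polymerase I subunits lay on both sides of 0. POLR1H, a small subunit that takes part in RNA cleavage, was at 8.61 in anti-miR cells and 8.12 in control cells, a difference of 0.49 (1 probe set). POLR1F, a subunit of the stalk, differed by -0.10 ± 0.14 (SD over 3 probe sets). The catalytic pair stood below the peripheral dimer. POLR1A, the largest subunit, was at 6.08 in anti-miR cells and 6.24 in control cells, and POLR1B at 7.14 in anti-miR cells and 7.30 in control cells. Their differences, -0.16 ± 0.06 (SD over 2 probe sets) and -0.16 ± 0.14 (SD over 6 probe sets), were alike. By these means, POLR1A lay within the nonspecific range on both arrays, and POLR1B within it in anti-miR cells. The brightest probe set of each lay above the range on both arrays. That of POLR1A was at 7.50 in anti-miR cells and 7.70 in control cells, and that of POLR1B at 8.41 and 8.55.

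The 5 measured subunits that all polymerases share were above 0 without exception, with a median of 0.32, and stayed above 0 with the median gene at 0. POLR2H was the only one past the threshold, at 10.39 in anti-miR cells and 9.75 in control cells (difference 0.64, 1 probe set). Its centred difference was 0.51, short of the threshold. POLR2E differed by 0.39 ± 0.14 (SD over 5 probe sets), POLR2L by 0.32 ± 0.06 (SD over 3) and POLR2K by 0.25 ± 0.03 (SD over 2). POLR2F was lowest at 0.18 ± 0.02 (SD over 2 probe sets), near the value of the median gene. The dimer that polymerases I and III share for assembly differed by 0.48 ± 0.38 for POLR1C and by 0.06 ± 0.11 for POLR1D (SD over 3 probe sets each). The POLR1C probe sets were spread between 0.05 and 0.74.

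No subunit specific to polymerase II passed the threshold among the 7 measured, and the median difference was 0.29. POLR2A, the largest subunit, carries the tail whose phosphorylation accompanies the steps of transcription. It was at 6.27 in anti-miR cells and 5.86 in control cells, a difference of 0.41 ± 0.16 (SD over 3 probe sets). Both of these mean levels lay within the nonspecific range. The brightest POLR2A probe set lay above the range on both arrays and differed by 0.57, short of the threshold. The dimmer probe sets of this gene lay within the range and had smaller differences, also above 0. POLR2B, the other large subunit of the core, was at 9.26 in anti-miR cells and 9.72 in control cells, a difference of -0.46 (1 probe set). POLR2B was the only polymerase II subunit below 0, and with the median gene at 0 it lay at -0.59, past the threshold.

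POLR2C, which pairs with POLR2J in the assembly platform, had the highest difference of these subunits at 0.44 ± 0.24 (SD over 4 probe sets), beside 0.08 for POLR2J. The stalk subunits POLR2D and POLR2G were at 0.27 ± 0.05 (SD over 2 probe sets) and 0.33 (1 probe set), and POLR2I at 0.29 (1 probe set).

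Of the 9 subunits found in polymerase III alone, 3 were higher (33.3%, against 8.23% of all genes) and 1 was lower (11.1%, against 14.2%). Over 9 genes such shares are coarse. The median of these subunits was 0.41. POLR3GL and POLR3G encode alternative versions of a peripheral subunit that sits with POLR3C and POLR3F in the trimer for promoter opening, POLR3G being known for expression in stem cells and tumours. POLR3GL was at 7.34 in anti-miR cells and 6.38 in control cells, a difference of 0.96 (1 probe set), the highest of all 67 genes. POLR3G was at 6.55 in anti-miR cells and 6.09 in control cells, a difference of 0.46 (1 probe set). Both versions were above the median gene, and only POLR3GL passed the threshold. In control cells POLR3GL lay within the nonspecific range, which makes its fold inexact. POLR3G lay within that range on both arrays, and without the filter on dim probe sets it differed by 0.27.

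POLR3C was at 7.72 in anti-miR cells and 7.10 in control cells, a difference of 0.61 ± 0.08 (SD over 3 probe sets). POLR3F, the other partner in the trimer, was at 6.42 in anti-miR cells and 6.36 in control cells, a difference of 0.06 ± 0.13 (SD over 2 probe sets). POLR3E was at 7.44 in anti-miR cells and 6.74 in control cells, a difference of 0.69 (1 probe set). POLR3E pairs with POLR3D in a dimer that serves initiation and termination, and POLR3D differed by -0.02 ± 0.15 (SD over 5 probe sets). In both units 1 partner was thus higher and another near 0. With the median gene at 0, POLR3C at 0.48 and POLR3E at 0.56 fell short of the threshold. In control cells POLR3E, too, lay within the nonspecific range. The means of POLR3D and POLR3F lay within it on both arrays, so differences near 0 do not show that these transcripts were unchanged. A brighter POLR3D probe set, above the range on both arrays, differed by 0.19.

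POLR3B, the smaller of the large subunits of polymerase III, was at 7.05 in anti-miR cells and 7.77 in control cells, a difference of -0.72 (1 probe set). Its partner in the catalytic core, POLR3A, was at 6.32 in anti-miR cells and 6.18 in control cells, a difference of 0.14 ± 0.03 (SD over 2 probe sets). POLR3B was the only subunit of any polymerase called lower, and in anti-miR cells it lay within the nonspecific range. POLR3A lay within that range on both arrays. POLR3K, which takes part in termination, had probe sets at 0.06 and 0.76 and a mean of 0.41.

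TFIID held the lowest genes of the whole group. Of 12 measured TAFs of this complex, 2 were lower (16.7%, against 14.2% of all genes) and 1 higher (8.33%, against 8.23%). These shares were near those of all genes. The median was 0.13, equal to that of all genes. TAF2, which contacts the initiator element of promoters, was at 7.16 in anti-miR cells and 8.64 in control cells. The difference was -1.47 ± 0.10 (SD over 2 probe sets), a 2.77-fold lower level. Its probe sets read 7.97 and 6.35 in anti-miR cells, against 9.51 and 7.76 in control cells. Each of them was lower by over 2-fold, and the dimmer lay within the nonspecific range in anti-miR cells.

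TAF3 binds a methylated histone tail found at active promoters. It was at 4.62 in anti-miR cells and 5.44 in control cells, a difference of -0.82 ± 0.71 (SD over 3 probe sets). Its probe sets were at 4.07, 5.21 and 4.59 in anti-miR cells, against 5.23, 5.22 and 5.88 in control cells. The first and last were lower by 1.16 and 1.29 on the log2 scale and the other was level. The mean of TAF3 is thus set by which probe sets are counted. In anti-miR cells the first and last lay below the array median of 4.64, so they passed the filter through the control array alone. All TAF3 probe sets were retained, so without the filter the mean stayed at -0.82. All of its probe sets lay within the range of the nonspecific controls on both arrays, so the fold is not an exact size. Of the measured genes, TAF3 was the only one whose probe sets differed by more than 1 from each other.

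TAF1, the largest TAF and the scaffold of TFIID, had probe sets at 6.96 and 5.14 in anti-miR cells, against 7.54 and 5.13 in control cells. The brighter set was lower by 0.58 on the log2 scale and the dimmer set was level, which gave a mean of -0.29 ± 0.42. TAF9, a histone-fold subunit, was at 9.96 in anti-miR cells and 9.33 in control cells, a difference of 0.63 ± 0.25 (SD over 4 probe sets, 0.29 to 0.83). TAF7, TAF5, TAF10, TAF12 and TAF4 lay between 0.19 and 0.45. TAF6, TAF11 and TAF8 lay between -0.03 and 0.07. TAF8 combined probe sets at -0.38 and 0.32.

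Some TAFs have paralogues that take part in other complexes or tissues. TAF6L, a subunit of the SAGA coactivator, was at 5.40 in anti-miR cells and 4.67 in control cells, a difference of 0.73 ± 0.26 (SD over 2 probe sets). Both probe sets lay within the nonspecific range, and with a further, dim probe set included the difference was 0.56. TAF6 itself differed by 0.07 ± 0.08 (SD over 6 probe sets). TAF9B differed by 0.12 ± 0.24 (SD over 3 probe sets), beside 0.63 for TAF9. TAF5L, also of SAGA, had probe sets at 0.45 and -0.41 and a mean of 0.02, beside 0.37 for TAF5. TAF15, an RNA-binding protein of the FET family, differed by -0.07 ± 0.02 (SD over 3 probe sets). TAF1L, TAF4B and TAF7L were too dim to be measured.

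**Figure D2:**
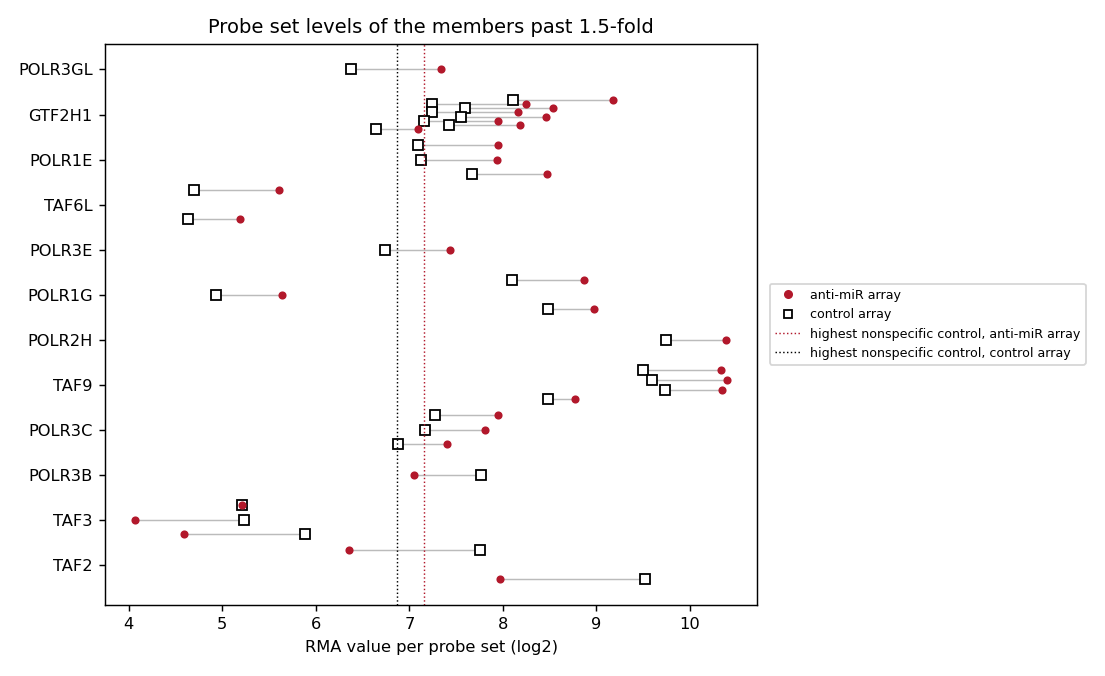
Levels of every retained probe set of the genes past 1.5-fold, in log2 expression values, with red circles for the anti-miR array and open squares for the control array. The dotted lines mark the highest nonspecific control, 7.16 in anti-miR cells and 6.87 in control cells; the TAF2 probe sets stand apart by over 2-fold, and those of TAF3 and TAF6L lie below both lines.

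SL1, the TBP complex of polymerase I, had 0 genes past the threshold among 4 TAFs. TAF1C differed by 0.42 ± 0.15 (SD over 3 probe sets), TAF1D by 0.18 (1 probe set) and TAF1B by -0.03 ± 0.15 (SD over 3 probe sets). TAF1A was lowest at -0.05 ± 0.36, and its 5 probe sets ran from -0.67 to 0.28. The SL1 median was 0.07. It turned to -0.06 with the median gene at 0, as did the median of the TAF paralogues.

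The initiation factors TFIIA, TFIIB, TFIIE and TFIIF had 7 measured genes within 1.5-fold and a median of 0.21. GTF2E1 and GTF2E2 encode the subunits of TFIIE, which recruits TFIIH. GTF2E1 was at 8.23 in anti-miR cells and 7.75 in control cells (difference 0.49, 1 probe set), while GTF2E2 differed by -0.11 (1 probe set). TFIIF, which escorts polymerase II to the promoter, was divided in the same way. GTF2F1 differed by 0.21 ± 0.08 (SD over 5 probe sets). GTF2F2 was at 8.88 in anti-miR cells and 9.36 in control cells, a difference of -0.48 ± 0.05 (SD over 2 probe sets), the lowest of these factors. GTF2B, the single protein of TFIIB, differed by 0.32, and the TFIIA genes GTF2A1 and GTF2A2 by 0.33 and 0.20.

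TFIIH opens promoter DNA and also serves nucleotide excision repair. GTF2H1, a subunit of its core, was at 8.23 in anti-miR cells and 7.37 in control cells. The difference was 0.86 ± 0.19 (SD over 8 probe sets, 0.45 to 1.07). All 8 probe sets of GTF2H1 differed above 0, and no other gene past the threshold had as many. That at 0.45 was short of the threshold and lay within the nonspecific range on both arrays. These probe sets read 1 gene on the same arrays, so their number adds no replicate. GTF2H3 differed by 0.49 ± 0.21 (SD over 2 probe sets) and GTF2H5, the smallest subunit, by 0.47 (1 probe set). The median over these 3 genes was 0.49, which does not cover TFIIH as a whole. Its 5 subunits with other symbols, given below, had a median of 0.21. The probe sets of GTF2H2 and its copies averaged -0.51.

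TFIIIA binds the 5S ribosomal RNA gene and TFIIIC the internal promoters of transfer RNA genes. None of their 7 genes passed the threshold, and the median was 0.31. GTF3C5 was highest at 0.51 (1 probe set), with 8.46 in anti-miR cells and 7.95 in control cells. GTF3A, the gene of TFIIIA, differed by 0.43 ± 0.02 (SD over 3 probe sets). GTF3C3 and GTF3C4 were at 0.33 and 0.31, GTF3C2 and GTF3C1 at 0.11 and 0.05, and GTF3C6 was lowest at -0.02. Of the TFII-I family, regulators named after the general factors, GTF2IRD1 alone was measured. It was at 5.44 in anti-miR cells and 5.93 in control cells, a difference of -0.49 (1 probe set), within the nonspecific range on both arrays.

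The genes left out for dim probe sets were POLR2M, TAF13, TAF1L, TAF4B, TAF7L, GTF2H4, GTF2I and GTF2IRD2. Genes were placed against the nonspecific range by the mean of their retained probe sets, whereas the cell type markers were placed by the brightest. A gene within the range can thus hold a probe set above it. Of the measured genes, 40 lay above the nonspecific range on both arrays, and 6 of these were higher and 1 lower. Of the 3252 genes of the array above that range, 9.35% were higher and 7.9% lower. Another 20 lay within the range on both arrays. Among 45 genes read by 2 or more retained probe sets, 34 had all of them on one side of 0. This count was not set beside one for all genes, so it shows nothing particular to these genes.

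Subunits that bind each other directly did not always differ alike. In 15 pairs of partners, chosen after their values were seen, 7 had differences of opposite sign and 6 lay more than 0.585 apart. These counts were not set beside those of unrelated genes, so they show nothing particular to partners. TAF10 entered with both TAF8 and TAF3, and POLR2C with POLR2J was not among the pairs. The large subunits were apart by 0.87 for polymerase II (POLR2A over POLR2B) and by 0.86 for polymerase III (POLR3A over POLR3B), and by less than 0.01 for polymerase I. TFIIF was apart by 0.69 (GTF2F1 over GTF2F2) and TFIIE by 0.59 (GTF2E1 over GTF2E2). TAF3 lay 1.06 below TAF10, with which it forms a histone-fold pair, and TAF6 lay 0.56 below TAF9. POLR1E and POLR1G lay 0.16 apart, TAF4 and TAF12 0.03, and POLR2D and POLR2G 0.07. These gaps hold no error between cultures. The pooled SD between probe sets of a gene was 0.29 over 6263 genes.

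**Figure D3:**
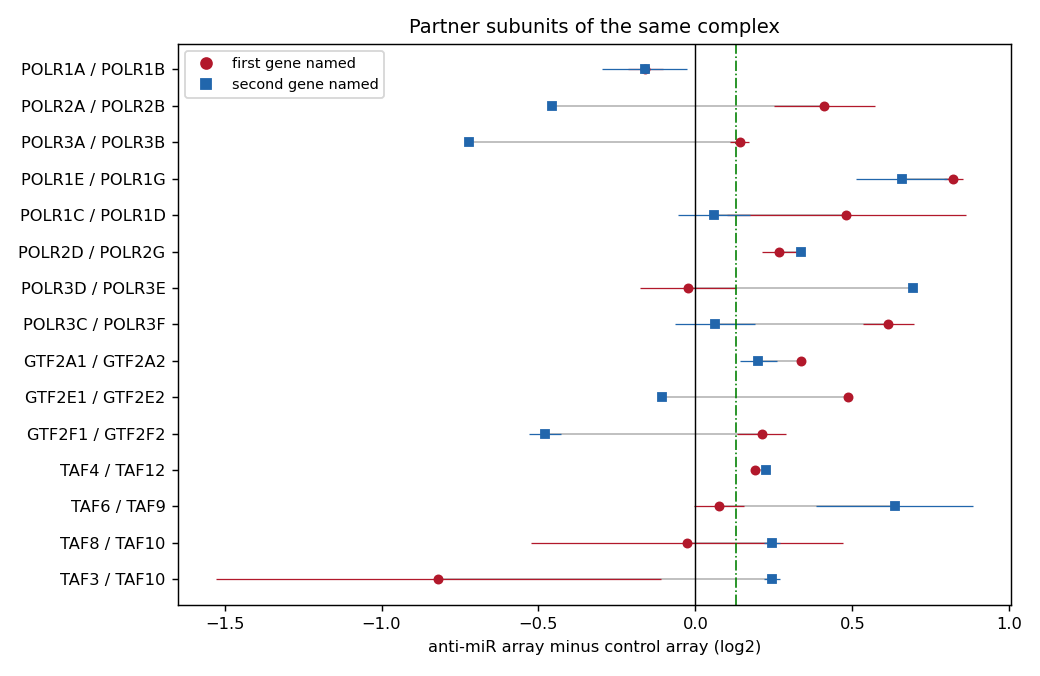
Differences, anti-miR array minus control array on the log2 scale, of the genes of 15 pairs of subunits that bind each other, with a line joining the partners; red circles are the first gene named and blue squares the second, bars are the SD over probe sets where there are at least 2, and the green line is the median of all genes at 0.13. The partners of POLR1A and POLR1B coincide, while those of TAF3 and TAF10 stand 1.06 apart.

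The difference was lower in genes of longer genomic span, counted between start and end with introns. Across the 67 genes Spearman's rho was -0.47, and across 11261 genes of the array it was -0.49. It was -0.34 among 29 polymerase subunits and -0.50 among 38 factors and TAFs. These are descriptions across genes that share both arrays, and genes are not independent replicates. All 6 measured genes of 100 kb and over were below 0, namely TAF2, TAF3, POLR3B, GTF2IRD1, GTF2F2 and TAF1, with a median of -0.60. The 1806 genes of that span on the array had a median of -0.53, and 47.6% of them were 1.5-fold lower.

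The 9 higher genes were all shorter than 50 kb, as were most higher genes of the array. Of those 928, 323 spanned under 10 kb and 535 spanned 10 to 50 kb. The 18 polymerase and factor genes under 10 kb had a median of 0.36 with 3 higher (POLR1G, POLR2H and TAF9). Beside them, 2577 genes of the array had a median of 0.26 and 12.5% higher. The 35 genes of 10 to 50 kb had a median of 0.32 with 6 higher, beside 0.20 and 10.6% higher for 5045 genes. The 8 genes of 50 to 100 kb had a median of 0.01, beside -0.10 for 1833 genes. In 10 of the 15 partner pairs the longer gene had the lower difference, a count likewise not set beside unrelated genes. Among them were GTF2F1 (13.6 kb) over GTF2F2 (164 kb) and POLR3A (54.4 kb) over POLR3B (152 kb). POLR3D and POLR3E ran the other way, with the longer POLR3E (37.7 kb) above POLR3D (9.47 kb). The part of gene span in the individual differences was not tested.

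**Figure D4:**
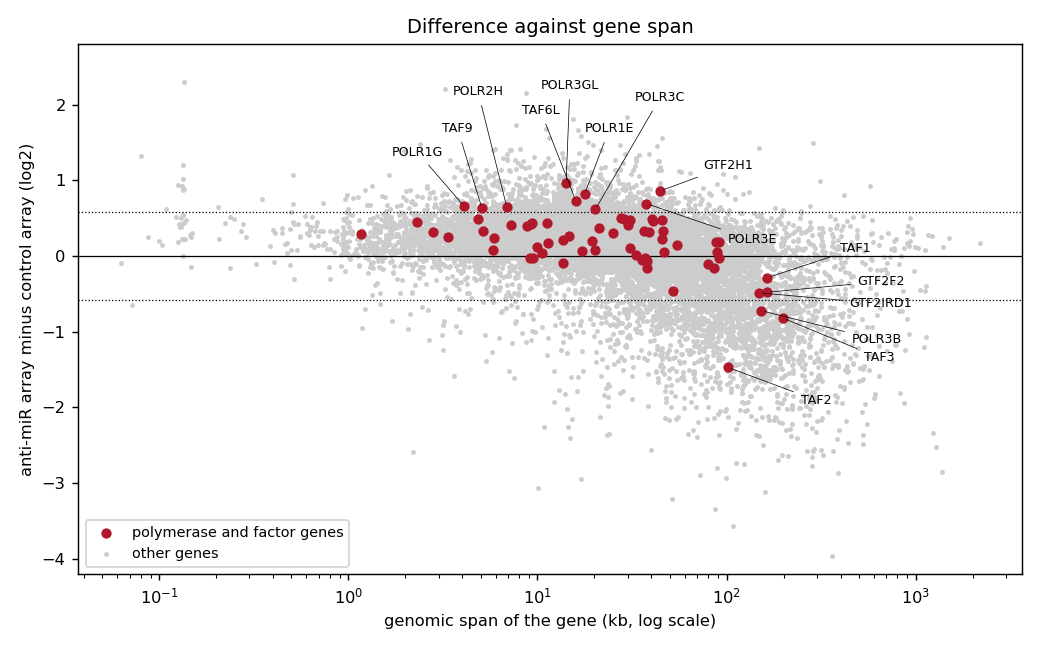
Difference, anti-miR array minus control array on the log2 scale, against genomic span in kb on a log axis, with red points for the polymerase and factor genes and grey points for other genes. The 6 red points of 100 kb and over all lie below 0, and the red points above the upper dotted line, at 1.5-fold, are all shorter than 50 kb. Most higher genes of the whole array were also shorter than 50 kb.

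Promoter sequences were set beside these values, since the genes share a function and several differed in the same direction. The 250 bases before the start are shown for GTF2H1 and POLR3GL, which were higher under either centring, and for POLR3B and TAF3, which were lower (RefSeq, GRCh38.p14, plus strand as printed, all genes on that strand). The windows are chr11:18322317-18322566 for GTF2H1, chr1:145964440-145964689 for POLR3GL, chr12:106357498-106357747 for POLR3B and chr10:7818255-7818504 for TAF3. Capitals mark the matches to the motifs given after them.
GTF2H1: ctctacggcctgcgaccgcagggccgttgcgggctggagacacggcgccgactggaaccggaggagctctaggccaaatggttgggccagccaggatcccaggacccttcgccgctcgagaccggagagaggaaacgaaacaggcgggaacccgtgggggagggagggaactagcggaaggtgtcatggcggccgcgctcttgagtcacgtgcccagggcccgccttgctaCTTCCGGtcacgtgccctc
POLR3GL: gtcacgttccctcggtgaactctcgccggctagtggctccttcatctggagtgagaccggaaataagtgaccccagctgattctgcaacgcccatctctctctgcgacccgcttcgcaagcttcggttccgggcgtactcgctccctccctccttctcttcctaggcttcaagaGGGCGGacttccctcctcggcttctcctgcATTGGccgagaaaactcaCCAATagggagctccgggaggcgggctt
POLR3B: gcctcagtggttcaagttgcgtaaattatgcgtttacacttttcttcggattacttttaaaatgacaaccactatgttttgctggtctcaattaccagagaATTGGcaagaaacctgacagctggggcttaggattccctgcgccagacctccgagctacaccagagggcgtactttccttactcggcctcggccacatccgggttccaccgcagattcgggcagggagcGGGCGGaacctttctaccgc
TAF3: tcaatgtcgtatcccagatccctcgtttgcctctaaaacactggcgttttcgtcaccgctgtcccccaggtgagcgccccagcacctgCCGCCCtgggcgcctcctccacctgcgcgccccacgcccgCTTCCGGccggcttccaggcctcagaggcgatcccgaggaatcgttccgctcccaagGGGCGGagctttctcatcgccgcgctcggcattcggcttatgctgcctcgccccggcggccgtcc

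The motifs were searched on both strands as the TATA box (TATAAA), the GC box (GGGCGG), the CCAAT box (CCAAT), the ETS core (CCGGAAG) and the NRF1 half-site (GCGCATG), none of which contains another. A promoter entry was found for 56 of the 67 genes. The ETS core stood in 17 of these 56 windows (30.4%), beside 8.82% of 27305 RefSeq promoter windows of the same length. The TATA box stood in 2 (3.57%), beside 11.1%, and the GC box in 32 (57.1%), beside 42.3%. The CCAAT box stood in 17 (30.4%), beside 33.0%, and the NRF1 half-site in 3 (5.36%), beside 3.96%. The 27305 windows were not limited to genes of the array or to genes that passed the filter. The shares thus compare unlike sets and show nothing particular to these families. The ETS core matched in GTF2H1, which was higher, and in TAF3, which was lower, and in neither POLR3GL nor POLR3B. It stood in 2 of 8 windows of higher genes and in 1 of 2 windows of lower genes. A match describes the letters of a window and shows no binding.

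Probe sets annotated to several symbols were kept apart from the gene values, since they cannot be assigned to 1 gene. Of 28 such probe sets that name a gene of these families, 25 passed the filter, 11 were higher and 2 lower. Of all 634 retained probe sets with several symbols, 11.7% were higher and 10.6% lower. The higher ones are not independent, since 9 of the 11 come from the POLR2M and the POLR2J groups described next, and 3 of the 11 lay above the nonspecific range on both arrays. The 6 probe sets shared by POLR2M and GCOM1, its neighbour with joint transcripts, were at 7.07 in anti-miR cells and 5.80 in control cells. Their mean difference was 1.27 ± 0.36 (SD over 6 probe sets, 0.73 to 1.70). Only 1 of them lay above the nonspecific range on both arrays, at 8.82 in anti-miR cells and 8.08 in control cells, and it had the smallest difference, 0.73. Another 4 lay within the range on both arrays, so the mean is no exact size. The probe set of POLR2M alone was dim and differed by 0.22. The 3 probe sets shared by POLR2J2, POLR2J3 and UPK3BL1 were at 7.32 in anti-miR cells and 6.49 in control cells (difference 0.84 ± 0.11), and all of them lay within the nonspecific range in control cells.

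TAF1D hosts small nucleolar RNAs in its introns, and 5 probe sets name it together with 1 of them. That with SNORA25 was at 8.71 in anti-miR cells and 7.76 in control cells (difference 0.95), and that with SNORA32 at 8.40 in anti-miR cells and 7.67 in control cells (difference 0.73). Those with SNORA8, SNORA40 and SNORA18 differed by 0.41, 0.41 and 0.29, and the probe set of TAF1D alone by 0.18. The 4 probe sets of GTF2H2 and its near-identical copies, which belong to TFIIH, ran the other way from GTF2H1. They averaged 6.59 in anti-miR cells and 7.09 in control cells, a difference of -0.51 ± 0.16. The GTF2I probe sets shared with its pseudogenes were at -0.26, -0.14 and 0.13.

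**Figure D5:**
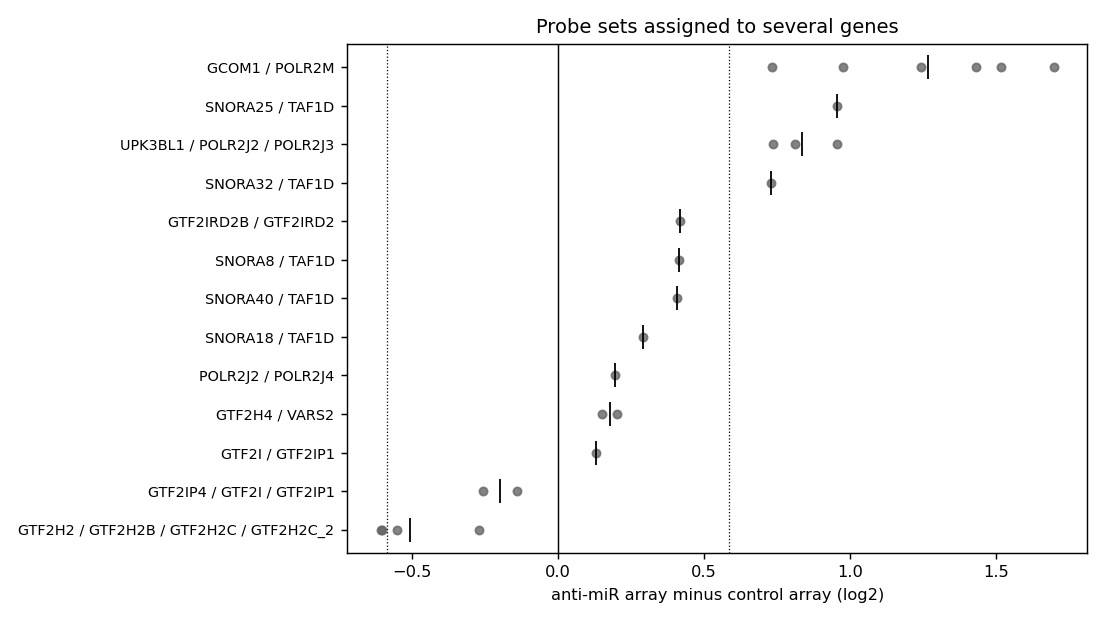
Differences, anti-miR array minus control array on the log2 scale, of the retained probe sets annotated to several symbols, 1 of them a polymerase or factor gene; each point is a probe set, upright bars are means and dotted lines mark 1.5-fold. The 6 POLR2M and GCOM1 probe sets lie between 0.73 and 1.70, and those of the GTF2H2 copies lie below 0.

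The factors that work with these genes but carry other symbols were read from a separate list of 65 genes, of which 61 were measured. It held 5 higher genes (8.20%, against 8.23% of all genes) and 7 lower genes (11.5%, against 14.2%), with a median of 0.16. Both shares were near those of all genes. Within TFIIH, MNAT1, which assembles the kinase module, was at 5.23 in anti-miR cells and 7.63 in control cells. Its difference was -2.40 (1 probe set), but the value in anti-miR cells lay within the nonspecific range, so neither the size nor its rank is exact. The kinase CDK7 and its cyclin CCNH, the partners of MNAT1, differed by -0.03 and 0.40, and the helicases ERCC3 and ERCC2 by 0.21 and 0.41. Without the filter on dim probe sets ERCC2 differed by -0.01.

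TBP, the subunit common to TFIID, SL1 and TFIIIB, was at 7.29 in anti-miR cells and 7.32 in control cells, a difference of -0.03 ± 0.06 (SD over 2 probe sets). The polymerase I factors UBTF and RRN3 lay above the median gene with the POLR1E and POLR1G dimer, at 0.59 ± 0.09 (SD over 4 probe sets) and 0.52 ± 0.11 (SD over 3 probe sets). Of the TFIIIB genes, BRF2 was higher by 1.29 ± 0.84 (SD over 2 probe sets at 0.70 and 1.88). BDP1 was at 5.34 in anti-miR cells and 6.34 in control cells, a difference of -1.0 ± 0.22 (SD over 3 probe sets), and BRF1 differed by 0.16 ± 0.19. By their means UBTF, RRN3, BRF1, BRF2 and BDP1 all lay within the nonspecific range on both arrays. With the median gene at 0, UBTF lay at 0.46, short of the threshold. None of the 11 genes for polymerase assembly and tail phosphatases passed the threshold.

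Mediator, which links activators to polymerase II, had 30 measured genes, 3 higher and 5 lower. These shares, 10.0% and 16.7%, were near the 8.23% and 14.2% of all genes. The lower genes were all of its dissociable kinase module. MED13L was at 5.57 in anti-miR cells and 7.71 in control cells, CDK19 at 4.06 in anti-miR cells and 5.88 in control cells, and CDK8 at 6.40 in anti-miR cells and 7.91 in control cells. MED13 differed by -1.54 ± 0.77 (SD over 5 probe sets) and CCNC by -0.83 ± 0.02 (SD over 3 probe sets), while MED12 of the same module differed by 0.02 (1 probe set). The higher genes, MED9 at 1.23, MED10 at 0.99 and MED22 at 0.63, encode subunits of the core (1 probe set each). MED9 lay within the nonspecific range on both arrays, and MED10 and MED22 lay above it. Of the 5 lower genes, CCNC alone lay above the nonspecific range on both arrays. Without the filter on dim probe sets CDK19 differed by -0.82 and MED9 by 0.61. The CDK19 level in anti-miR cells, a mean over 2 probe sets, lay below the array median of 4.64. At least 1 of these probe sets thus passed the filter through the control array alone. With the median gene at 0, MED22 lay at 0.50, short of the threshold. Of the lower genes, CDK8, CDK19, MED13 and MED13L exceed 100 kb in span, and CCNC spans 26.4 kb.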

How the data were processed

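The authors deposited log2 values for each probe set, made with RMA according to the submitters' processing notes. RMA corrects background, brings array distributions together and summarises probes. Not given in the sources used here are the RMA version and which arrays were processed jointly. The median was 4.64 for anti-miR cells and 4.63 for control cells. No detection call was used, and precision is limited by the number of arrays.

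Groups were taken from the sample titles, 1 array each, and only differences and counts were computed. Probe sets were named from the platform annotation, with 45172 of 45253 single-symbol probe sets matched to RefSeq of GRCh38.p14 by Entrez ID. The files name no genome build. Gene spans come from RefSeq. Probe sets were kept when they reached the median of their array (percentile 50) on at least 1 array. A probe set could thus pass through only the array on which it was higher. A gene's value was the mean of its retained probe sets. The scripts were tested on simulated data.

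The members and lists were chosen with earlier results of these data known. The partner pairs and the motifs were chosen after the values were seen. The genes named were, by rule, all past 1.5-fold, the highest and lowest of each complex, those with probe sets over 1 apart, those filtered out, paralogues and POLR2A. Other genes are named to complete a complex. Alternatives were no filter, a filter at percentile 75, the highest or median probe set, centring on the median gene or a lowess trend (fraction 0.3), plain _at probe sets and a 2-fold threshold. A restriction to genes above the nonspecific range was chosen after seeing the data. The software was Python 3.11.15 with numpy 2.4.6, pandas 2.3.3, scipy 1.17.1, statsmodels 0.14.6 and matplotlib 3.10.9.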

Additional observations from a re-analysis of the deposited data

Results flagged for a closer look

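These differences come from probe sets annotated to several symbols, which enter no gene value, and each lay past 1.5-fold on the anti-miR array relative to the control array. The probe sets of POLR2M and GCOM1 averaged 1.27 over 6 probe sets, of which 1 lay above the nonspecific range on both arrays. The probe set of TAF1D with SNORA25 differed by 0.95 and that with SNORA32 by 0.73. The probe sets of POLR2J2, POLR2J3 and UPK3BL1 averaged 0.84 over 3 probe sets. Which of the named genes each probe set reads was not tested.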

How the results depend on the processing

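No called gene changed direction, and 431 of 462 alternative values were counted as unmoved. Many could not move, since a gene of 1 retained probe set keeps its value under the highest or median probe set. Some calls were lost although the value was counted as unmoved, and some medians changed sign, as given below. The 9 higher polymerase and factor genes became 4 with centring on the median gene, 5 with a lowess trend, 3 with plain _at probe sets (18 genes measured) and 0 at 2-fold. The 3 lower genes became 6, 5, 1 and 1 under these settings, and 1 among the genes above the nonspecific range on both arrays. For the accompanying factors, the 5 higher genes became 8 with the brightest probe set, 3 with either centring, and 2 at 2-fold or above the nonspecific range. The 7 lower ones became 9 with either centring, 6 at 2-fold, 4 with plain _at probe sets and 1 above that range. Medians moved to 0.0067 for the TFII-I family without a filter and to 0.57 for polymerase I subunits above the nonspecific range. With plain _at probe sets, each over 2 or 3 genes, they moved to 0.092 for polymerase III subunits, -1.03 for TFIID, 0.68 for the TAF paralogues and -0.11 for the initiation factors. Of 24 called genes, 15 stayed past 1.5-fold under every alternative that gave a value. TAF9 fell to 0.50 with either centring, TAF3 lay at -0.58 with plain _at probe sets, and POLR1G at 0.49 with its brightest probe set. The cause was not tested. No paired analysis was possible because there was 1 array for anti-miR cells and 1 for control cells. With 1 array per group, the differences hold no error between cultures, and levels within the nonspecific range give folds that are not exact sizes.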
